A study of Mus musculus with 12 samples.

Results

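The 35 genes described here encode 25 integrin chains (17 alpha and 8 beta) and 10 laminin chains (5 alpha, 3 beta and 2 gamma). They were taken from a list of gene symbols, and all 35 were found among the 38924 genes of the deposited count files. The data are bulk RNA sequencing of sorted cells from C57BL/6 mice, with 12 libraries in 6 groups of 2. Mice of both lines carried the ROSAmTmG reporter, in which a cell and its descendants switch from membrane tdTomato to membrane GFP once Cre has acted. One line carried Myf5-Cre and the other Ucp1-iCre, so that GFP reports past activity of the Myf5 or the Ucp1 driver and need not mean that the driver is active at the time of the sort. From both lines, mammary myoepithelial cells with GFP and without it were sorted at day 10 of lactation through a gate on CD24, high CD29 and absent lineage markers. They are called myoepithelial below after this gate, whatever their markers show. Brown adipocytes with GFP were taken from both lines in virgin females of 8 weeks. Tissue, age, reproductive state and sort gate therefore change together between the mammary and the brown groups and cannot be told apart. CD29 is the product of Itgb1, 1 of the 35 genes, so that the mammary cells were selected on its product, and its difference between mammary and brown cells is no finding.

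Integrins are receptors of 1 alpha and 1 beta chain that span the cell membrane and tie the actin or keratin cytoskeleton to the matrix outside. Laminins are trimers of an alpha, a beta and a gamma chain, and their polymer is the scaffold of basement membranes. In the mammary gland, the myoepithelial layer lies between the milk-producing cells and the basement membrane and is attached to it by laminin-binding integrins and hemidesmosomes, while each adipocyte is wrapped in a basement membrane of its own.

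Library totals ranged from 11027738 to 32956480 counts, and levels are given in TMM-scaled CPM (counts scaled to a common library size). A count of 0 allows a level of up to 0.0728 to 0.366 CPM, depending on the library, from 3 counts. These limits cover counting error only. Both myoepithelial libraries with the Ucp1 label stood apart from the rest, with 10909 and 10560 genes detected and a correlation of 0.731 across genes between them, against 0.879 to 0.990 in the other pairs. In these, 10 member genes had 0 counts in both and 9 more in 1 of the pair, so the comparisons that do not need these libraries are also given without them. The series gives 2 replicates per group without saying whether each library is 1 animal, and p-values then measure only the spread between these samples. Basal epithelial markers (9 genes, among them Krt5 and Krt14) summed to 8010 to 14900 CPM in GFP-negative and 1330 to 3460 CPM in GFP-positive mammary libraries. Of these sums the contractile genes Acta2 and Myh11 held 3596 to 5608 and 865 to 3931 CPM in GFP-negative libraries. In GFP-positive libraries they held 145 to 1577 and 418 to 1389 CPM. Krt5 stood at 10.0 to 107 CPM there and at 179 to 656 CPM in GFP-negative libraries. Krt14 stood at 3.98 to 162 and 492.5 to 830.5 CPM. Brown adipocyte markers (9 genes) summed to 16400 to 34000 CPM in brown libraries. The brown list also summed to 2510 to 15900 CPM in mammary libraries, where Fabp4, a fatty acid carrier of adipocytes and vessels, stood at 2167 to 14600 CPM and Ucp1 at 0 to 2.71 CPM. Luminal and milk markers (8 genes) summed to 9210 to 68100 CPM in mammary libraries, above the basal sum in each of the 4 mammary groups, with the milk protein gene Csn2 at 6942 to 46920 CPM, and to 0.122 to 2.41 CPM in brown libraries.

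Genes whose exons overlap another gene had lower counts in the mammary than in the brown files. The median log2 difference of unlabelled mammary over brown cells was 0.65 for 11320 genes without overlap and -6.37 for 439 genes with over 50% of their exonic length shared. Of the members, 29 share no exonic sequence with another gene in the files and 6 (Itga4, Itga7, Itga8, Itgav, Itgb4 and Lamc3) share up to 8.04%. The origin of this difference was not tested. For the comparisons with brown adipocytes, called members are given a second time for genes without exonic overlap.

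Levels were compared between genes per kilobase of exon. Itgb1, the beta chain of most matrix-binding integrins, made up 65.3% to 87.5% of the integrin beta signal in each of the 12 libraries. Itgb5, which pairs with the alpha chain Itgav, came next in all 6 groups. Among alpha chains the order depended on the group. Itga6, a laminin-binding chain, was highest in both GFP-negative mammary groups, at 41.4 ± 18.7 CPM per kb in the Myf5 line and 42.6 ± 4.21 in the Ucp1 line (SD, n = 2 each). It was followed there by Itga5, the fibronectin receptor chain, at 22.6 ± 14.0 and 37.5 ± 0.646 CPM per kb. In the Myf5 line Itga3 came next by mean, at 8.97 ± 8.29 CPM per kb. In both libraries of that group Itga6 lay above Itga5 (46.4% and 41.8% of the integrin alpha sum against 20.9% and 24.8%). Itga5 lay above Itga3 (5.13% and 11.3%) in both as well. In the Ucp1 line Itga7 came next at 15.7 ± 0.899 CPM per kb, below Itga6 and Itga5. These orders were not tested. In Ucp1 GFP-positive cells Itga6 and Itga5 led as well, at 67.2 ± 34.2 and 59.5 ± 32.5 CPM per kb. Itga6 lay above Itga5 in both libraries (41.6% and 35.9% of the integrin alpha sum against 37.6% and 30.5%), without a test. In Myf5 GFP-positive mammary cells Itga5 ranked first at 29.3 ± 14.8 and Itga7, a laminin-binding chain best known from muscle, second at 21.1 ± 19.4 CPM per kb, an order within their spread that turned when length was taken from the longest transcript. In Myf5 brown adipocytes Itga7 ranked first at 8.02 ± 1.91 CPM per kb, and in Ucp1 brown adipocytes Itga6 at 14.9 ± 6.52.

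**Figure D1:**
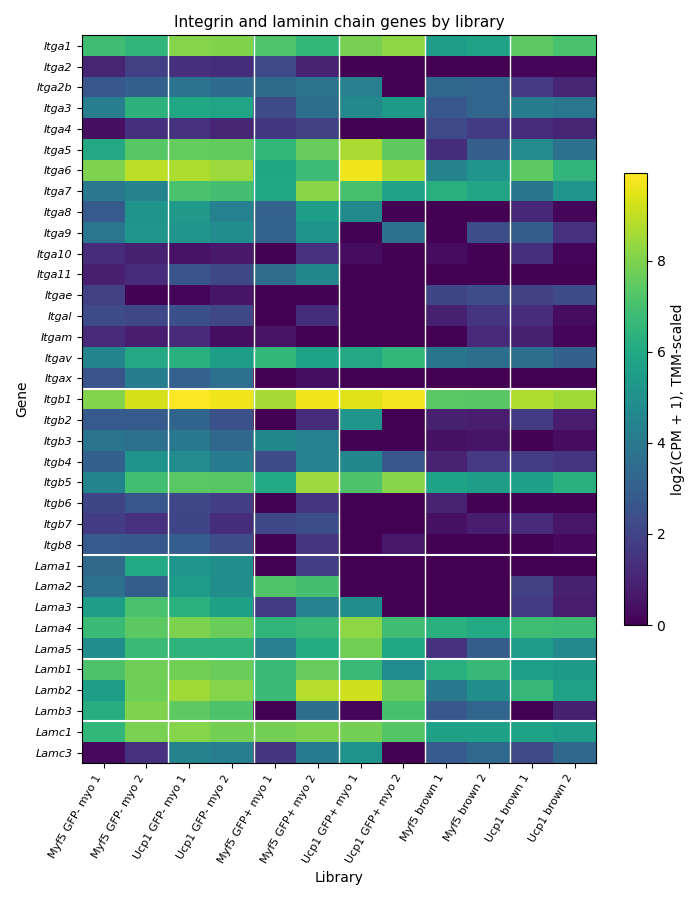
Level of each of the 35 genes (rows) in each of the 12 libraries (columns), as log2 of CPM + 1, with white lines between groups and between alpha and beta integrins and alpha, beta and gamma laminins. Itgb1 and Lama4 are seen in all 12 libraries, while the rows of Lama1, Lama2, Lama3 and Itga11 are dark in Myf5 brown adipocytes, where they had 0 counts.

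The comparison with the most libraries was that of unlabelled myoepithelial cells with brown adipocytes, 4 against 4. Of the 35 members, 21 were higher in the 4 unlabelled mammary libraries and 0 were lower (edgeR quasi-likelihood test over all genes, Benjamini-Hochberg adjusted p under 0.05), while 14.6% of the 16953 genes tested were called higher and 2036 genes lower (26.6% in either direction). Without overlap between the groups, 22 members were higher (19.4% of all genes) and 1, Itgae, was lower (18.0%). The members' median log2 difference was 2.37, beside 0.36 over all genes tested. Among the 21 were 8 of the 10 laminin chains and 13 of the 25 integrin chains, Itgb1 included. Apart from Itgb1, on whose product the gate selects, 20 of 34 members were higher. Without the Ucp1 GFP-positive libraries in the fit 24 were higher, with Itga9, Itgb6 and Lama4 added, and 0 lower (23.3% and 18.3% of genes). In bulk samples, fewer cells of a type and less RNA per cell cannot be told apart, here and below.

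Among laminins, Lama1, Lama3 and Lamb3 had the largest fold differences of their means. Lama1, the alpha chain of the laminin best known from the early embryo (ENSMUSG00000032796, mm10 chromosome 17, 67697259 to 67822647), stood at 9.80, 65.7, 36.2 and 30.1 CPM in the unlabelled libraries and at 0 counts in all 4 brown libraries. It was at least 477-fold higher against 3 counts over the pooled brown total (edgeR adjusted p = 0.00772). Lama3, the alpha chain of the laminin of hemidesmosomes (ENSMUSG00000024421), stood at 44.9, 133, 79.8 and 49.7 CPM, against 0 and 0 in Myf5 and 2.20 and 0.680 CPM in Ucp1 brown adipocytes. Its mean was 107-fold higher (edgeR adjusted p = 0.0185). Lamb3, the beta chain of the same hemidesmosome laminin (ENSMUSG00000026639, chromosome 1, 193207699 to 193343878), stood at 72.1, 259, 176 and 143 CPM, against 5.49 and 8.43 CPM in Myf5 and 0 and 0.850 CPM in Ucp1 brown adipocytes. Its mean was 44.0-fold higher (edgeR adjusted p = 0.0402). In none of these 3 genes did the unlabelled and the brown libraries overlap.

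The chains of widely expressed laminins were higher too, by smaller factors. Lamc1, the gamma chain of most laminins (ENSMUSG00000026478, chromosome 1, 153218922 to 153332786), stood at 95.0, 244, 279 and 232 CPM in unlabelled cells and at 49.8, 50.5, 53.7 and 45.1 CPM in brown adipocytes. The log2 difference was 2.06 (SE 0.352, edgeR adjusted p = 0.00335), and the 4 brown libraries varied with an SD of 3.58 CPM. Lamb1 and Lamb2, the 2 common beta chains, averaged 196 ± 37.7 against 66.0 ± 26.9 CPM and 224 ± 134 against 49.1 ± 36.5 CPM (SD, n = 4 each; edgeR adjusted p = 0.0234 and 0.0315). Lama5, the alpha chain of adult epithelial and vascular basement membranes, averaged 77.2 ± 33.2 against 19.0 ± 18.7 CPM (edgeR adjusted p = 0.0213), with overlap between an unlabelled library of the Myf5 line at 29.7 CPM and a Ucp1 brown library at 42.8 CPM. Lama2, the alpha chain of muscle and nerve laminin, averaged 22.8 ± 17.0 against 0.895 ± 1.29 CPM (edgeR adjusted p = 0.00102). Lama4, the alpha chain of vascular and adipocyte basement membranes, was 2.00-fold higher on average, at 183 ± 59.0 against 91.8 ± 24.0 CPM, and did not pass the test (edgeR adjusted p = 0.0615, and 0.0175 without the Ucp1 GFP-positive libraries). Lamc3, the other gamma chain, stood between 0.177 and 20.5 CPM in unlabelled and between 3.57 and 9.62 CPM in brown libraries and was not called; its mean was higher in unlabelled cells while the fitted log2 difference was -0.73.

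Among laminin-binding integrins, Itga6 and Itga3 were called higher and Itga7 was not called. Itga6 (ENSMUSG00000027111, chromosome 2, 71745616 to 71858416) stood at 254, 493, 411 and 357 CPM in unlabelled cells, against 20.8 and 35.2 CPM in Myf5 and 176 and 92.7 CPM in Ucp1 brown adipocytes (log2 2.63, SE 0.437, edgeR adjusted p = 0.003). Itga3 averaged 53.7 ± 27.6 against 11.2 ± 5.10 CPM (edgeR adjusted p = 0.0189). Itgb4, the partner of Itga6 in hemidesmosomes, averaged 20.8 ± 11.4 against 1.85 ± 0.654 CPM, 11.2-fold higher (edgeR adjusted p = 0.0176). Itga7 ranged from 14.9 to 132 CPM in unlabelled and from 13.4 to 75.8 CPM in brown libraries, and the groups overlapped. Of the collagen-binding chains, Itga1 (log2 0.94, SE 0.276, edgeR adjusted p = 0.0334), Itga2 and Itga11 were called higher. Itga10 stayed at or under 1.65 CPM in all 12 libraries.

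Integrins that bind fibronectin, vitronectin and related ligands through an RGD motif held several of the called genes. Itga5 (ENSMUSG00000000555, chromosome 15, 103344286 to 103366763) stood at 62.5, 160.1, 188 and 183 CPM in unlabelled cells, against 1.47 and 7.05 CPM in Myf5 and 26.8 and 12.4 CPM in Ucp1 brown adipocytes (log2 3.97, SE 0.631, edgeR adjusted p = 0.00243). Itgb3, the beta chain of the vitronectin receptor (ENSMUSG00000020689, chromosome 11, 104608000 to 104670476), stood between 9.17 and 15.3 CPM in unlabelled cells and at most at 0.458 CPM in brown adipocytes (log2 5.67, SE 0.944, edgeR adjusted p = 0.00395). Itgav, its alpha partner, averaged 51.3 ± 23.9 against 10.7 ± 2.45 CPM (edgeR adjusted p = 0.00864). In each of these 3 genes all unlabelled libraries lay above all brown ones. Itga8, a nephronectin receptor chain, was 79.4-fold higher at 24.6 ± 14.9 against 0.310 ± 0.565 CPM (edgeR adjusted p = 0.0335), and Itgb8, which pairs with Itgav, was at 5.66 ± 1.14 CPM with 0 counts in 3 of the 4 brown libraries (edgeR adjusted p = 0.0338). Itgb5 and Itgb6 had higher means in unlabelled cells but did not pass (edgeR adjusted p = 0.297 and 0.0733). The same held for Itga9, which is not of this RGD-binding class (edgeR adjusted p = 0.154).

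**Figure D2:**
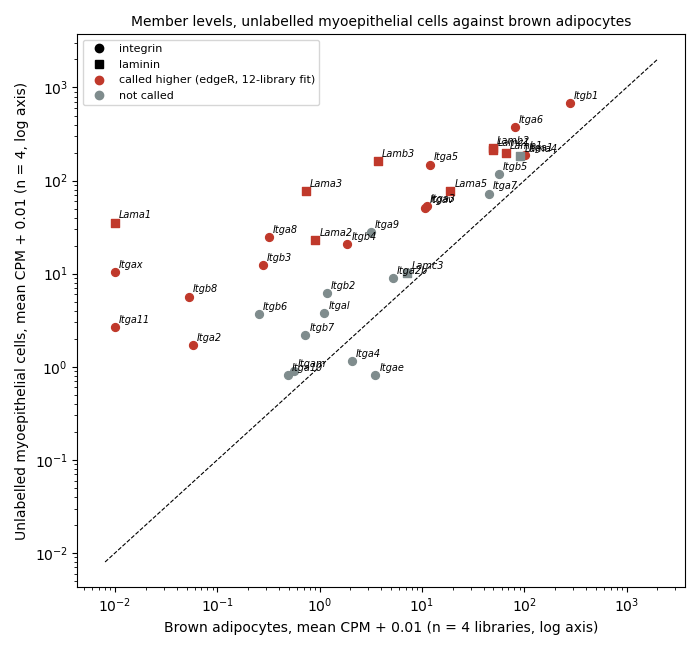
Mean level of each member in the 4 brown adipocyte libraries (x axis) against the 4 unlabelled myoepithelial libraries (y axis), as CPM + 0.01 on log axes, with circles for integrins, squares for laminins, red for the 21 members called higher and grey for the others. The dashed line marks equal levels, and only Itga4 and Itgae lie below it.

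Integrins of blood cells were low in both groups. Itgax, the alpha chain of a beta-2 integrin of dendritic cells and macrophages, stood at 5.06, 17.2, 7.66 and 11.3 CPM in unlabelled cells and at 0 counts in all 4 brown libraries, at least 139-fold higher (edgeR adjusted p = 0.00633). Itgal and Itgb2, chains of lymphocyte and myeloid integrins, averaged 3.77 ± 0.465 and 6.15 ± 1.48 CPM in unlabelled cells, against 1.10 ± 0.713 and 1.17 ± 0.832 CPM in brown adipocytes, and did not pass. Itgae, the chain of intraepithelial T cells, went the other way with 0 to 2.66 CPM against 2.83 to 4.03 CPM, without a call (edgeR adjusted p = 0.249). Leukocyte markers (13 genes, none at 0 in either group) differed along with Itgax, at a summed 1350 to 1770 CPM in unlabelled and 9.28 to 175 CPM in brown libraries, and their part in the result was not tested. Of that sum Cd74, an antigen presentation gene, made up 1119 to 1562 CPM in unlabelled and 1.34 to 43.0 CPM in brown libraries, and 8 of the 13 markers were higher without overlap. Itga2b, the platelet chain, ranged from 5.54 to 12.7 CPM in unlabelled and 1.02 to 9.28 CPM in brown libraries, and Itgam, Itga4 and Itgb7 stayed under 4 CPM in both. Exons of Itgam and Itga10 overlap the predicted genes Gm49368 and Gm42957 of the annotation on the same strand over 68.7% and 33.5% of their length, so that both are uncertain.

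Markers of other cell types differed in the same direction as the 21 members. Endothelial markers (7 genes, none at 0) summed to 4110 to 4950 CPM in unlabelled cells, 129 to 510 CPM in Myf5 and 1990 to 3250 CPM in Ucp1 brown adipocytes, and fibroblast markers (7 genes, with Pdgfra at 0 in Myf5 brown adipocytes) to 484 to 2940 against 37.3 to 88.9 CPM. Basal markers were at 12.2 to 97.5 CPM in brown cells, with Krt5, Krt14, Krt17 and Cdh3 at 0. The largest difference was that of luminal and milk markers, at 32100 to 68100 against 0.122 to 2.41 CPM with 8 of 8 called higher, and pericyte markers (6 genes) summed to 413 to 1480 against 103 to 574 CPM with 4 of 6 called higher. The part of these cells in the result was not tested. On genes without exonic overlap, 13 of the 29 members tested stayed higher and 0 were lower (13.1% and 7.55% of 11371 genes), with Itga8, Itgav and Itgb4 outside that fit, and Itga1, Itgb1, Lamb1, Lamb2 and Lamb3 were no longer called (edgeR adjusted p = 0.109, 0.0611, 0.052, 0.0549 and 0.0524). With 1 library left out at a time, the members' median log2 difference was lowest, at 1.89, without the second unlabelled Myf5 library. It was highest, at 2.83, without the first Ucp1 brown library. Over all genes the median was 0.21 and 0.48 in these fits. In all 8 fits with an omitted library, 31 or 32 members lay above 0.

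Itga5, Itgav and Lamc1 were called higher in myoepithelial cells in all 3 mammary against brown comparisons, the 2 within-line ones below included. These comparisons share brown libraries. Upstream sequences from RefSeq (GRCm38.p6) are shown for Itga5 and Itgav, as 2 genes called higher in all 3 comparisons, and for Lama2, whose calls differ from theirs. Each run holds the 250 bases before the RefSeq start on the gene's strand, 5′ to 3′, and capitals mark the GC box GGGCGG on either strand. The windows are chr15:103366792-103367041 (minus strand), chr2:83724147-83724396 (plus strand) and chr10:27616943-27617192 (minus strand). The Itga5 and Itgav windows lie outside the span that GENCODE gives their own gene. The Lama2 window lies before the RefSeq start but inside the longer span that GENCODE gives the gene, so it is not upstream of every annotated Lama2 transcript.
Itga5: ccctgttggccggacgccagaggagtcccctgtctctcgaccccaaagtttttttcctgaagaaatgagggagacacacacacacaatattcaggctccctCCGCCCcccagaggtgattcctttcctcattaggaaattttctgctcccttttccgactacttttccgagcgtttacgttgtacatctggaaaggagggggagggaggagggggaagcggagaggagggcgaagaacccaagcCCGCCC
Itgav: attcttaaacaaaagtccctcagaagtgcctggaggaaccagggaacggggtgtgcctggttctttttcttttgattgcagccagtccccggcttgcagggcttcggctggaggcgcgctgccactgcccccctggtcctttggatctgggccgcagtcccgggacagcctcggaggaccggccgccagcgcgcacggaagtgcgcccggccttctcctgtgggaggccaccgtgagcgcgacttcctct
Lama2: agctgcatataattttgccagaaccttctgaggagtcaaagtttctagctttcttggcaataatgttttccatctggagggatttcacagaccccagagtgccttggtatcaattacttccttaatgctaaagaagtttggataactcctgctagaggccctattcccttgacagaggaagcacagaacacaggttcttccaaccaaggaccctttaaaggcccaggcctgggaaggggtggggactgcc
The Itga5 window holds the GC box 2 times and the other windows do not hold these letters. Of 32851 promoter windows of this length, 32.7% hold it, as do 9 of the 26 windows of the 23 members with an entry. The 3 windows differ in base composition, with 55.6% G and C in Itga5, 64.4% in Itgav and 47.2% in Lama2, beside a median of 52.4% over all windows.

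The laminin alpha chain largely sets which receptors a laminin trimer binds, and the makeup of alpha chains differed between the groups. Each library's 5 alpha chains were expressed as shares of their summed CPM per kb. Lama4 made up 97.7% and 90.4% of the sum in Myf5 and 69.7% and 79.8% in Ucp1 brown adipocytes, and most of the rest was Lama5. In the 4 unlabelled mammary libraries Lama4 held 32.9% to 51.3%, Lama3 13.7% to 28.7%, Lama5 14.9% to 22.2% and Lama1 5.79% to 15.7%. Myf5 GFP-positive cells had a makeup of their own, with Lama2 at 49.5% and 31.2%, Lama4 at 40.4% and 35.6% and Lama1 at 0% and 1.05%. Ucp1 GFP-positive cells held Lama4 at 52.3% and 64.5% and Lama5 at 41.9% and 35.5%, with Lama2 at 0 counts. These shares are a description without a test. With the longest transcript as length, Lama2 held 48.1% and 33.6% in Myf5 GFP-positive cells and Lama4 81.7% to 98.8% in brown adipocytes.

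**Figure D3:**
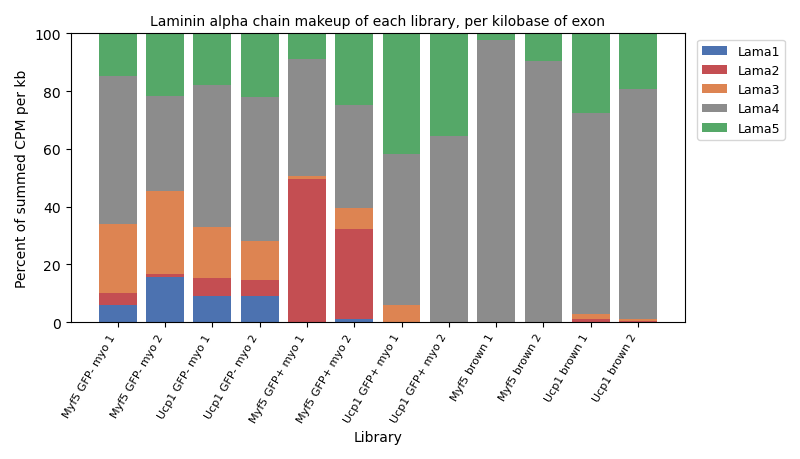
Share of each of the 5 laminin alpha chains in the summed CPM per kilobase of each library (bars, 12 libraries, y axis in percent). Lama4 fills 69.7% to 97.7% of the 4 brown bars, and Lama2 takes 49.5% and 31.2% of the Myf5 GFP-positive bars but at most 6.36% of any other.

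Within the Myf5 line, myoepithelial cells with the label were compared with those that passed the gate without it. No member passed the test in the fit over all 12 libraries, where edgeR called 0 of 16953 genes (0.00%). An unadjusted p under 0.05 was found for 8 members and for 1573 of the 16953 genes. The largest fitted differences lay in Itga11, Lama2 and Itga7 on the higher side and in Itgae, Itgax, Lamb3 and Lama1 on the lower side, where Itgae rests on 1 library at 2.66 CPM. Without a test, 8 members were higher without overlap between the groups (14.5% of all genes) and 12 were lower (20.2%).

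Lama2 (ENSMUSG00000019899, chromosome 10, 26980036 to 27619758) stood at 150.0 and 126 CPM in Myf5 GFP-positive cells and at 11.7 and 6.51 CPM in GFP-negative cells. The labelled libraries were the highest of all 12. The mean was 15.1-fold higher (log2 3.92, SE 0.818, edgeR adjusted p = 0.265), and in the fit that left out the Ucp1-labelled mammary libraries Lama2 was the only member called (edgeR adjusted p = 0.0334, with 1.09% of 16521 genes called higher and 0.315% lower). DESeq2 called 6 members, Lama2, Itga7 and Itga11 as higher and Itga3, Itga6 and Itgax as lower, with 4.27% of all genes called.

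Among receptors for collagen and laminin, values lay on both sides. Itga11, a receptor chain for fibrillar collagen found on fibroblasts (ENSMUSG00000032243, chromosome 9, 62677826 to 62783982), stood at 10.8 and 22.7 CPM with the Myf5 label and at 0.798 and 1.38 CPM without (log2 3.94, SE 1.22, edgeR adjusted p = 0.375). Itga7 stood at 59.2 and 282 CPM against 14.9 and 20.8 CPM (log2 3.25, SE 0.837, edgeR adjusted p = 0.291), and the labelled libraries differed from each other by more than the lower of them differed from the unlabelled ones. In contrast, Itga6 stood at 55.4 and 111 CPM against 254 and 493 CPM (log2 -2.17, SE 0.606, edgeR adjusted p = 0.317), and Itga3 at 3.80 and 10.9 CPM against 17.7 and 84.7 CPM (log2 -2.79, SE 0.869, edgeR adjusted p = 0.342). The laminin chains of hemidesmosomes lay on the same side as Itga6. Lamb3 stood at 0 and 10.9 CPM against 72.1 and 259 CPM, Lama3 at 2.37 and 19.5 CPM against 44.9 and 133 CPM, and Lama1 at 0 and 2.50 CPM against 9.80 and 65.7 CPM. None of these passed the 12-library test, while in each the labelled libraries lay below both unlabelled ones.

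**Figure D4:**
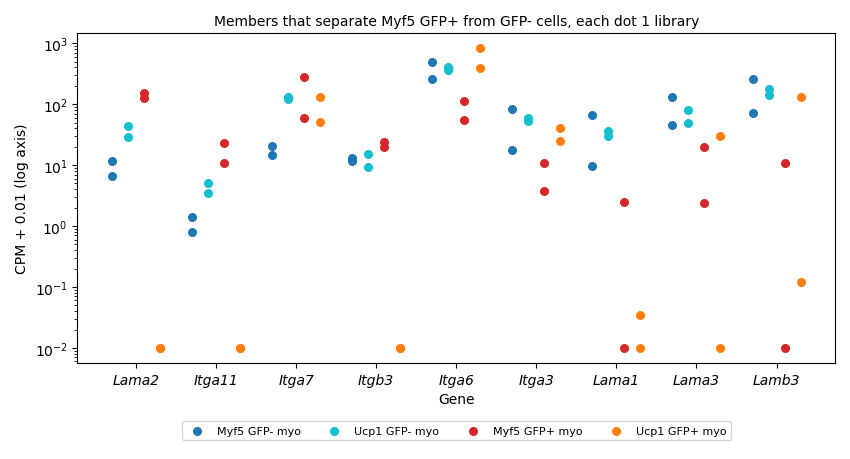
Level of 9 members in the 8 mammary libraries, each dot 1 library, as CPM + 0.01 on a log axis, with colours for the 4 mammary groups. Dots at the bottom are libraries with 0 counts, and the Myf5 GFP-positive dots lie above the Myf5 GFP-negative ones for Lama2, Itga11, Itga7 and Itgb3 and below them for the other 5 genes.

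Markers of stromal and epithelial cells differed along with these genes. Fibroblast markers (7 genes, none at 0) summed to 9710 to 18000 CPM in Myf5 GFP-positive and 484 to 836 CPM in GFP-negative cells, pericyte markers (6 genes) to 2540 to 2850 against 413 to 654 CPM, and basal epithelial markers to 2180 to 3460 against 8010 to 14900 CPM. With the label the fibroblast sum lay above the basal sum, and without it below. Of the basal list, Acta2 stood at 1577 and 1546 against 3596 and 4826 CPM. Krt5 stood at 10.0 and 31.6 against 179 and 656 CPM. Endothelial markers were lower with the label as well, at 1170 to 1650 against 4110 to 4490 CPM and without overlap in 7 of 7 genes. Luminal and milk markers stood at 9210 to 21200 against 32100 to 61000 CPM. Leukocyte markers stood at 450 to 667 against 1410 to 1770 CPM, mostly Cd74, and 11 of 13 were lower without overlap. No marker of these 6 lists passed the 12-library test, and their part in the differences of Lama2, Itga11, Itga7, Itga6, Itgax, Lama4 and the hemidesmosome chains was not tested. Markers of skeletal muscle, where Itga7 and Lama2 are abundant, were followed as well. The 6 genes summed to 14.2 to 58.3 CPM with the label and 6.27 to 6.52 CPM without, with Myh4 at 0 in both. Without overlap 3 of the 6 were higher and 1 was lower, and 0 were called. Their part was not tested either.

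Several widely expressed chains overlapped between the Myf5 groups. Lamc1 stood at 231 and 247 CPM with and 95.0 and 244 CPM without the label, Lamb1 at 101 and 196 against 142 and 217 CPM, Itga1 at 144 and 93.5 against 116 and 91.3 CPM, and Itga5 at 92.7 and 196 against 62.5 and 160.1 CPM. None of these 4 passed the test. Lama4 was lower without overlap, at 90.4 and 106 CPM against 108 and 172 CPM, with the lowest unlabelled library next to the highest labelled one.

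With the Ucp1 label, 9 members were lower and 0 were higher (edgeR, adjusted p under 0.05), and 14.0% of all genes were called lower and 0.277% higher. They were the integrin genes Itga2, Itga4, Itga11, Itgal, Itgax, Itgb3 and Itgb7 and the laminin genes Lama1 and Lama2. The members' median log2 difference was -1.31, beside -0.69 over all genes. Without overlap between the groups, 20 members were lower (48.1% of all genes) and 0 were higher (11.8%). All 9 called members stood at 0 counts in at least 1 of the GFP-positive libraries. On genes without exonic overlap 8 of the 9 stayed called, with Itga4 outside that fit.

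Lama2 stood at 43.7 and 29.3 CPM in Ucp1 GFP-negative cells and at 0 counts in both GFP-positive libraries. It was lower by at least 833-fold against 3 counts over their pooled total, a limit that covers counting error only (edgeR adjusted p = 0.00139). Itgb3 stood at 15.3 and 9.17 CPM without and at 0 counts with the label, lower by at least 279-fold under the same limit (edgeR adjusted p = 0.00388). These limits do not cover losses of the kind seen where a gene stood at 0 counts in 1 labelled library and at up to 34.9 CPM in the other (Itgb2). Lama1 stood at 36.2 and 30.1 CPM without the label and at 0 and 0.0243 CPM with it (edgeR adjusted p = 0.0397). Zero counts in these libraries were common and depended on the level. Where the unlabelled level was 20 to 50 CPM, 3.18% of 3178 genes had 0 counts in both GFP-positive libraries, and Lama2 was 1 of 5 members in that range. At 10 to 20 CPM, the range of Itgb3, the share was 13.7%, and at 2 to 5 CPM, the range of Itga11, Itgal, Itgb6 and Itgb7, it was 44.6%. Fibroblast markers, none of the 7 at 0, summed to 201 to 683 CPM with and 2350 to 2940 CPM without the label. Leukocyte markers, among them Ptprc and Adgre1 at 0 with the label, summed to 571 to 649 CPM with and 1350 to 1450 CPM without it. Most of that sum was Cd74, at 620.4 and 480.3 against 1169 and 1119 CPM, while 11 of the 13 genes were lower without overlap and 3 were called. Basal markers stood at 1330 to 2850 CPM with and 9410 to 10700 CPM without the label, luminal and milk markers at 11100 to 13500 against 62000 to 68100 CPM, and endothelial markers at 5260 to 7120 against 4900 to 4950 CPM. Pericyte markers summed to 710 to 987 against 1430 to 1480 CPM, with 5 of 6 lower without overlap and 0 called. Schwann cell markers (5 genes) summed to 0.0243 to 58.0 against 130 to 143 CPM. All 5 were lower without overlap, and 4 were called lower. The part of these cells in the 9 calls was not tested.

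**Figure D5:**
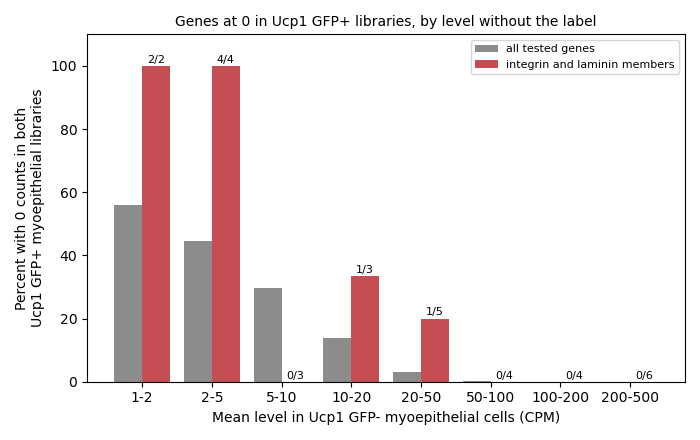
Percent of genes with 0 counts in both Ucp1 GFP-positive myoepithelial libraries (y axis), by mean level in Ucp1 GFP-negative cells (x axis, CPM), for all tested genes (grey) and for the members (red, with their number). The grey bars fall from 55.9% at 1 to 2 CPM to 3.18% at 20 to 50 CPM, where Lama2 is the 1 member of 5 at 0.

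No member above 50 CPM in Ucp1 GFP-negative cells passed the test for the label. Itga6 stood at 825 and 388 CPM with and at 411 and 357 CPM without the label (log2 0.66, SE 0.583, edgeR adjusted p = 0.513). Lamb2 stood at 593 and 199.7 against 361 and 276 CPM, and Lama5 at 226 and 60.9 against 86.5 and 85.6 CPM. Lamb1 had the smallest adjusted p among these, at 103 and 27.1 against 225 and 201 CPM (log2 -1.71, SE 0.628, edgeR adjusted p = 0.1). The direction of Lamb2 and Lama5 turned when the first labelled library was left out (log2 -0.68 and -0.51, not called). The labelled libraries differed from each other on several genes of moderate level. Lamb3 stood at 0.110 CPM in the first and 129 CPM in the second. Lama3, Itga8, Itgb2, Lamc3 and Itga2b stood at 29.6, 25.7, 34.9, 32.2 and 18.9 CPM in the first and at 0 counts in the second. Without the first or second GFP-positive library the members' median log2 difference was -5.69 and -1.06, beside -1.73 and -1.76 over all genes. Without the first or second GFP-negative library it was -1.16 and -1.61, beside -0.70 and -0.65 over all genes. Calls are not counted in these fits, which leave 1 library in a group.

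Whether the label effect itself differed between the lines was tested as an interaction. A higher label effect in the Myf5 line was called for 6 members, Itga2, Itga4, Itga11, Itgb3, Itgb7 and Lama2, and a lower one for 0 (10.7% and 0.283% of all genes). Lama2 had the smallest adjusted p (edgeR adjusted p = 0.00198): the labelled libraries of the Myf5 line held the highest levels of the series and those of the Ucp1 line 0 counts. In the other 5 genes the call likewise rests on 0 counts in both Ucp1 GFP-positive libraries, and their levels elsewhere in the mammary groups were between 0.310 and 23.8 CPM. Itga6 pointed the other way without passing (log2 -2.83, SE 0.837, edgeR adjusted p = 0.0628), and Itga7 had a value of 3.74 (SE 1.12, edgeR adjusted p = 0.0656). Itga2 was no longer called without a filter (edgeR adjusted p = 0.0693) or on genes without exonic overlap (0.0504), and Itga2 and Itga4 were not called with only the 4 mammary groups in the fit (edgeR adjusted p = 0.0819 and 0.0682). With 1 library left out at a time, the members' median log2 value was lowest, at -0.19, without the second Myf5 GFP-positive library. It was highest, at 2.71, without the first Ucp1 GFP-positive library. Over all genes the median was 0.15 and 1.23 in these fits.

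Labelled myoepithelial cells were also set against labelled brown adipocytes of the same line. In the Myf5 line 10 members were higher and 0 lower, beside 10.9% and 8.84% of all genes, with a median log2 difference of 2.25 (0.14 over all genes). They were Itga2, Itga5, Itga11, Itgav, Itgb1, Itgb3, Lama2, Lama5, Lamb2 and Lamc1. Apart from Itgb1, the gene of the gate, 9 of 34 were higher. Without overlap, 21 were higher (33.1%) and 1 was lower (33.8%), and DESeq2 called 16 (33.1% of genes). Lama2 was at least 877-fold higher, since both Myf5 brown libraries held 0 counts (edgeR adjusted p = 0.00132), and Itga11 at least 107-fold (edgeR adjusted p = 0.0118). Itga5 averaged 144 ± 73.1 against 4.26 ± 3.95 CPM (33.9-fold, edgeR adjusted p = 0.00694), Itgb3 21.6 ± 3.03 against 0.412 ± 0.0650 CPM (52.5-fold, edgeR adjusted p = 0.0206) and Lamc1 239 ± 11.8 against 50.1 ± 0.480 CPM (4.77-fold, edgeR adjusted p = 0.015). Without the Ucp1 GFP-positive libraries 15 were higher (20.0% of all genes), and Itgae was lower (17.5%), at 0 counts against 3.17 and 4.03 CPM. On genes without exonic overlap 8 of the 10 stayed called, Lama5 was not, and Itgav was outside that fit. There 1198 of 11371 genes were called higher and 623 lower. Without the first or second mammary library the members' median log2 difference was 2.36 and 0.39, beside 0.02 and 0 over all genes. Without the first or second brown library it was 2.245 and 2.26, beside 0.14 and 0.17 over all genes. Fibroblast markers summed to 9710 to 18000 CPM in these mammary cells, above their basal sum of 2180 to 3460 CPM, and to 47.7 to 88.9 CPM in brown adipocytes (6 of 7 called higher). Pericyte markers summed to 2540 to 2850 against 103 to 105 CPM (4 of 6) and luminal and milk markers to 9210 to 21200 against 0.122 to 1.28 CPM (6 of 8). Their part in the 10 calls was not tested.

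In the Ucp1 line 4 members were higher, Itga5, Itga6, Itgav and Lamc1 (5.34% of all genes), and 4 were lower, Itga4, Itgae, Itgb7 and Lama2 (22.5%). Without overlap, 13 were higher (16.6%) and 7 lower (41.1%), and DESeq2 called 13 (37.9% of genes). Itga5 stood at 407 and 180.2 CPM in labelled mammary cells and at 26.8 and 12.4 CPM in brown adipocytes (15.0-fold, edgeR adjusted p = 0.0121). Itga6 stood at 825 and 388 against 176 and 92.7 CPM (4.52-fold, edgeR adjusted p = 0.027), and Lamc1 at 231 and 152 against 53.7 and 45.1 CPM (3.88-fold, edgeR adjusted p = 0.0189). The 4 lower genes were all at 0 counts in the mammary libraries and at most at 3.91 CPM in brown adipocytes. With only these 4 libraries in the fit, 0 members were called by edgeR, which called 0 of 13528 genes there. An unadjusted p under 0.05 was found for 9 members and for 4404 of the 13528 genes. Without the first or second mammary library the members' median log2 difference was 0.064 and 0.68, beside -1.50 and -1.47 over all genes. Without the first or second brown library it was 1.24 and 1.745, beside -0.33 and -0.20 over all genes. On genes without exonic overlap 3 were higher and 2 lower of 29 (4.45% and 17.3% of genes). Endothelial markers summed to 5260 to 7120 CPM in these mammary cells, above their basal sum of 1330 to 2850 CPM, and to 1990 to 3250 CPM in brown adipocytes, with 6 of 7 higher without overlap and 0 called. Luminal and milk markers stood at 11100 to 13500 against 1.28 to 2.41 CPM (6 of 8 called higher). The part of these cells in the calls was not tested.

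The other genes of the adhesion system were followed in 4 lists. Of 20 further basement membrane genes, 12 were higher and 1 was lower in unlabelled myoepithelial cells than in brown adipocytes, beside 14.6% of all genes called higher. Among the 12 were Nid1, the nidogen that links laminin to collagen IV (270.5 ± 84.8 against 74.8 ± 23.2 CPM, SD, n = 4 each; edgeR adjusted p = 0.00194), and Col4a1, a collagen IV chain (1618 ± 838 against 367 ± 178 CPM, edgeR adjusted p = 0.0171). Smoc1, a calcium-binding matrix protein, was the 1 lower gene (0.581 ± 0.499 against 76.7 ± 62.9 CPM, edgeR adjusted p = 0.00169). With the Ucp1 label 10 of the 20 were lower, beside 14.0% of all genes, 2 of them, Efemp1 and Col4a5, at 0 counts in both labelled libraries, and 0 were called with the Myf5 label.

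Of 15 tested receptors other than integrins and hemidesmosome partners, 6 were higher in unlabelled cells than in brown adipocytes (among them Dmd, Dst, Plec and Bcam) and 1, the sarcoglycan Sgcd, was lower, again beside 14.6% of all genes called higher. Dst and Plec, linker proteins that tie integrins of hemidesmosomes to keratin filaments, averaged 279 ± 90.2 against 79.2 ± 47.0 CPM and 150.2 ± 54.1 against 43.6 ± 18.2 CPM (SD, n = 4 each; edgeR adjusted p = 0.00654 and 0.00779). Of 26 genes of the adhesion machinery inside the cell, 14 were higher and 1 lower, beside the same 14.6% on the higher side. Flna, an actin crosslinker that binds integrin tails, averaged 904 ± 452 against 25.9 ± 22.0 CPM (edgeR adjusted p = 0.000701) and Zyx, a focal adhesion protein, 223 ± 53.8 against 39.5 ± 29.8 CPM (edgeR adjusted p = 0.000954). The 1 lower gene, Ilk, is uncertain: 89.7% of its exonic length overlaps neighbouring genes, and it stood at 0.124 to 0.844 CPM in all 8 mammary libraries against 178 to 230 CPM in brown adipocytes.

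Of 18 tested ligands of integrins other than laminins, 11 were higher in unlabelled cells than in brown adipocytes, beside 14.6% of all genes, and 0 were lower. Postn, a matrix protein bound through Itgav, averaged 565 ± 238 against 92.6 ± 100.3 CPM (SD, n = 4 each; edgeR adjusted p = 0.000323), and Mfge8, a milk fat globule protein that is also bound through Itgav, 1902 ± 437 against 395 ± 287 CPM (edgeR adjusted p = 0.000792). In the Myf5 line Fn1, fibronectin and the ligand of the Itga5 receptor, averaged 646 ± 104 CPM in labelled cells of the mammary gate against 4.62 ± 1.36 CPM in brown adipocytes (SD, n = 2 each; edgeR adjusted p = 0.00159). In those mammary cells fibroblast markers summed to more than basal ones. With the Myf5 label 0 genes of the 4 lists were called, although Sdc2, Sgcd, Fn1 and Thbs2, named after their values were seen, were higher without the Ucp1 GFP-positive libraries (1.09% of all genes). With the Ucp1 label 0 were higher. In list order, 10 of 20, 3 of 15, 3 of 26 and 2 of 18 were lower, beside 14.0% of all genes.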

How the data were processed

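Per the labels' protocols, RNA was extracted with an RNeasy Micro kit, amplified with a low-input SMART-Seq kit and sequenced by Illumina. TopHat, HTSeq, DESeq2 and mm10 are named in the submitters' processing notes. For tool versions, gene models, strandedness and multi-mapped reads, the value is not given in the sources used here. Raw read counts per Ensembl gene were deposited, 1 file per library, and 0 sample columns were left unused. GENCODE M21 gave symbols to 37607 of 38924 genes, and exon lengths. The 35 members and all gene lists were chosen with earlier results of these data known. All members may be named. From each of 4 partner lists (81 genes), the up to 4 called genes of smallest adjusted p and the 2 of highest level per kb may be named per comparison.

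The test was the edgeR 4.0.16 quasi-likelihood test (R 4.3.3) with TMM factors, filterByExpr (minimum count 10, prior count 0.125) and Benjamini-Hochberg adjustment at 0.05 over 16953 genes. The fit covered all 12 libraries with 1 coefficient per group, and all 35 members passed the filter. Values are TMM-scaled CPM, and an SE is the absolute log2 value divided by the root of F. A fold against a group at 0 uses 3 counts over the group's pooled total. Alternatives were DESeq2 1.42.0, limma-voom 3.58.1, RLE factors, no filter, only the compared groups, a replicate block, no mitochondrial and milk genes, omitted libraries and, added after seeing the data, genes without exonic overlap. The model was also run on simulated counts, with a common mean for all groups and changes set in Myf5 GFP-positive cells only. That run did not imitate the many zero counts of the Ucp1 GFP-positive libraries, so it cannot speak for calls that rest on them. Tables were made with pandas 2.3.3 and numpy 2.4.6 under Python 3.11.15, and plots with matplotlib 3.10.9.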

Additional observations from a re-analysis of the deposited data

Results flagged for a closer look

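For 6 members the effect of the GFP label differed between the Myf5 and the Ucp1 line in a test of that difference over all genes, which called 10.7% of all genes in the same direction. The edgeR adjusted p was 0.00198 for Lama2, 0.00632 for Itgb3, 0.00919 for Itga11, 0.013 for Itgb7, 0.0174 for Itga4 and 0.04 for Itga2. All 6 had 0 counts in both Ucp1 GFP-positive libraries, and all 6 lay between 0.310 and 150.0 CPM in the other mammary libraries. Itga2 was not called without a filter on low counts (edgeR adjusted p = 0.0693), and with only the 4 mammary groups in the fit Itga2 and Itga4 were not called (0.0819 and 0.0682).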

How the results depend on the processing

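edgeR called 0 members for the Myf5 label, DESeq2 6, limma-voom 3 and the fit without the Ucp1 GFP-positive libraries 1. For the Myf5 mammary against brown comparison the 10 members called became 16 with DESeq2 and 16 without those libraries, and 8 of the 10 stayed on genes without exonic overlap. For the Ucp1 one the 8 became 13 with DESeq2, 0 with only its own groups and 5 on genes without exonic overlap, and for unlabelled cells the 21 became 13 on those genes. Leaving out 1 library at a time gave 0 to 0 for the Myf5 label, 3 to 14 for the Ucp1 label, 2 to 11 for their difference, 2 to 8 and 3 to 16 for the Myf5 and Ucp1 tissue comparisons and 8 to 18 for unlabelled cells. RLE factors moved the median over all genes from -0.69 to -0.51 for the Ucp1 label, from 0.36 to 0.11 for unlabelled cells and from 0.14 to 0 for the Myf5 tissue comparison, and lost Lama5 in the last and Itga1 in unlabelled cells.

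Replicate numbers name samples within a line and no label says what they share. With the number as a replicate block, 0 members were called for the Myf5 label, 2 for the Ucp1 label, 3 for their difference, 7 and 6 for the tissue comparisons and 18 for unlabelled cells. Over all 16953 genes that fit called, in the same order, 0, 1251, 957, 2032, 2774 and 2912. Lama2 and Itgb3 were the 2 of the Ucp1 label (edgeR adjusted p = 0.0106 and 0.0276), and the 3 of the difference were Lama2, Itgb3 and, as lower, Itga6 (edgeR adjusted p = 0.012, 0.0401 and 0.0313), while Itga2, Itga4, Itga11 and Itgb7 lost the call (edgeR adjusted p = 0.213, 0.0977, 0.0735 and 0.0809). Same-numbered deviations correlated at 0.472 for the Myf5 mammary groups and at 0.023 to 0.108 for other pairs of groups. The cause of these changes was not tested. At 0 counts, depth allows 0.0728 to 0.366 CPM.

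Of 836 values of single named members under alternatives other than omitted libraries, 747 kept direction and call, 52 lost the call, 26 gained it and 11 changed sign. Of 568 under single omitted libraries, 391 kept both, 149 lost the call, 10 gained it and 18 changed sign. All 29 sign changes were in differences not called in the 12-library fit. For the Ucp1 label, the log2 difference of Itga1 became 0.18 with RLE factors, 0.10 without a filter, 0.18 with DESeq2, 0.006 with limma-voom, 0.074 with only its own groups, 0.003 with the replicate block, 0.13 without mitochondrial and milk genes and 0.21 on genes without exonic overlap, where Itgb1 became 0.002. Itgb2 became -3.18 with limma-voom and -0.31 with the block. With 1 library omitted, the log2 values that changed sign ranged for the Ucp1 label from -0.21 to 0.16 in Itga1, -0.68 to 0.88 in Lamb2, -0.51 to 1.38 in Lama5, -10.10 to 2.46 in Itgb2, -11.71 to 0.74 in Lamc3 and -10.97 to 0.71 in Itga2b. For the Myf5 label the ranges were -0.23 to 1.18 in Itgb1, -8.87 to 0 in Itgae, -0.040 to 1.33 in Lamc1, -0.84 to 0.12 in Lamb1, -0.15 to 0.47 in Itga1 and -0.27 to 1.21 in Itga5, and for unlabelled cells -0.016 to 0.70 in Itga7 and -0.040 to 4.17 in Itgam.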
